A study of Mus musculus with 8 samples.

Results

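Nr4a and Egr transcription factors are switched on by signals from the T cell receptor, and Nab proteins hold Egr proteins in check. Transcripts of these families were followed here in P14 CD8 T cells. The 8 genes *Nr4a1*, *Nr4a2*, *Nr4a3*, *Egr1*, *Egr2*, *Egr3*, *Nab1* and *Nab2* were taken by symbol from a deposited table of 24303 genes, and all 8 were found in it. In P14 mice a transgene gives CD8 T cells a receptor for GP33, a peptide of lymphocytic choriomeningitis virus, so that every cell meets the same antigen. They came from spleens of uninfected male or female mice at least 8 weeks old, and every condition began with 2 days on plates coated with anti-CD3 and anti-CD28. Effector libraries were made from cells taken on day 7. Acute-2d cells were then kept free of peptide until day 19. Acute-7d cells were given GP33 repeatedly until day 7 and were peptide-free from then until day 19. T_Dysf cells were given GP33 repeatedly until day 19, with TGF-β1 from day 7. The labels do not say separately what the Effector cells received up to day 7. Each condition has 2 biological replicates. T_Dysf therefore differed from Acute-7d in antigen, in TGF-β1 and in being under stimulation when collected, which cannot be told apart, and Effector differed from all others also in its day.

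Nr4a proteins are orphan nuclear receptors that need no ligand to act, and their genes are immediate early genes, transcribed soon after the receptor signals and then shut off again. Egr proteins are zinc-finger factors induced through the MAP kinase pathway, of which Egr2 and Egr3 are known to restrain T cell activation, and Nab proteins bind Egr proteins and turn them into repressors. In CD8 T cells that meet antigen for long, Nr4a factors are known for raising inhibitory receptors, while *Egr1* marks recent signaling more broadly.

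Counts in the table are normalized counts: estimated reads per gene over a size factor that the authors computed for each library. A library held between 19382147 and 24856195 reads on genes, and 3 reads were worth between 2.59 and 3.35 normalized counts. All 8 genes lay above that floor in every library, and the lowest value was 73.4 normalized counts of *Nr4a2*. The floor covers counting error only. Tests were limma's, moderated across all genes on log2(normalized count + 1), and p-values were adjusted by Benjamini-Hochberg. A gene passed if it differed at least 2-fold and its adjusted p was under 0.05. All intervals are 95% intervals of the log2 difference from that fit. With 2 libraries against 2, no exact permutation test can give a p below 0.333. Labels of 3 libraries, both of Effector and replicate 1 of Acute-7d, carry the prefix RESUB, whose meaning they do not give. T_Dysf replicates stood furthest apart: 5.89% of the 12028 genes with a mean of at least 50 differed by over 2-fold between them, against 4.53% for Effector, 2.03% for Acute-2d and 3.10% for Acute-7d, but none of the 8 genes did so in T_Dysf.

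Promoter sequence from RefSeq (GRCm38.p6) is shown for the 3 *Nr4a* genes and for *Egr2*. Elements that respond to cAMP or serum are among the known entry points of signals at such genes. Windows of the 250 bases before each transcript start were searched on both strands for the CRE core (TGACG or CGTCA), the CArG box bound by SRF, the EGR motif (GCGTGGGCG or GCGGGGGCG) and the NBRE bound by Nr4a proteins (AAAGGTCA), motifs that share no letters in the windows below. Of 32851 promoter windows in the table, 17.8% held a CRE core and 0.137% held 4 or more, 1.47% held a CArG box, 3.06% an EGR motif and 1.34% an NBRE. The windows of *Nr4a1*, *Nr4a2* and *Nr4a3* held 4 CRE cores each, of which the last of *Nr4a3*, at 147 bases, lies in an annotated exon and is not shown. None of the 3 held an NBRE or a CArG box. In each line the motifs found are in capitals and the sequence reads 5′ to 3′ toward the start.
Nr4a1, chr15:101266596-101266845, plus strand, inside the annotated gene but outside its exons, with CRE cores beginning 233, 213, 69 and 40 bases before the start and an EGR motif at 60: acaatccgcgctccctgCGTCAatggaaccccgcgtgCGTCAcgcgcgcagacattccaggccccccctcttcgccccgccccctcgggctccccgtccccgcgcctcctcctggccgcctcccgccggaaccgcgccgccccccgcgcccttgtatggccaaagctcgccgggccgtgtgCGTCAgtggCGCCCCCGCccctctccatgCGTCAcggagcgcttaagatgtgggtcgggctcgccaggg
Nr4a2, chr2:57124004-57124253, minus strand, directly upstream of the gene, with CRE cores at 200, 144, 123 and 111 bases: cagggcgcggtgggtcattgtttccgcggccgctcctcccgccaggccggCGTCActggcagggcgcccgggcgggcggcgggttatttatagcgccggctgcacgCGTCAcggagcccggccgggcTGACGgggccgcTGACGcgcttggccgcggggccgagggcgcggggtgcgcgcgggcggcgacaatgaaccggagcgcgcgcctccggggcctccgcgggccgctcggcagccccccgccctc
Nr4a3, chr4:48045055-48045152, plus strand, the 98 bases of the window that lie upstream of any annotated exon, with CRE cores at 231, 213 and 205 bases: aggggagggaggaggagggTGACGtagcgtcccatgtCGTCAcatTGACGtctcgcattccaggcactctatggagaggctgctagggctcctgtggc
Egr2, chr10:67537619-67537868, plus strand, inside the annotated gene but outside its exons, with CRE cores at 111 and 55 bases and a CArG box at 72: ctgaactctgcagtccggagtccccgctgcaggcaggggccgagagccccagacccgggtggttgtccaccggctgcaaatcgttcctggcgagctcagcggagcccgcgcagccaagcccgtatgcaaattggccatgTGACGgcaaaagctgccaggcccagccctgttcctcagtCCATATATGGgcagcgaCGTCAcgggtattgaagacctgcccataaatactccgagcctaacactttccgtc
A match is a description of letters, and no binding was measured. *Egr2* has other starts in the table, which are not shown, and their motifs differed. The window before the start at 67535499 held none of the motifs searched, and that at 67537566 held a CArG box but no CRE core. Windows at 67537870 and 67537930, which overlap the one shown, held the same motifs as it. The window of *Nab1* held 3 EGR motifs, at 141, 109 and 38 bases, and 1 CRE core, all within the 231 bases of the window that lie in an annotated exon, where 0.0335% of all windows held 3 or more EGR motifs. The window of *Nab2* held none of these motifs, and *Egr1* and *Egr3* had no entry.

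*Nr4a2*, which encodes Nurr1, was the only gene of the 8 that passed between T_Dysf and both Acute conditions. The gene lies on chromosome 2 (57106830 to 57124003, minus strand, GRCm38). It was counted at 348 and 512 in Effector, 165 and 73.4 in Acute-2d, 185 and 121 in Acute-7d, and 1368 and 1282 in T_Dysf (normalized counts, replicates 1 and 2). Both T_Dysf libraries lay above all others, Effector libraries came next, and the Acute libraries overlapped each other at the bottom. *Nr4a2* was 8.79-fold higher in T_Dysf than in Acute-7d (log2 difference 3.14 ± 0.46 SE, adjusted p = 0.0240) and 11.9-fold higher than in Acute-2d (3.57 ± 0.46, adjusted p = 0.0139). Against Effector the log2 difference of 1.65, with an interval of 0.46 to 2.83, did not pass (adjusted p = 0.0786). No Acute-2d or T_Dysf library carries the RESUB prefix. With only T_Dysf and Acute-2d in the fit, the call between them was lost (adjusted p = 0.0625). With a term for the prefix the log2 difference from Acute-7d was 3.44 (adjusted p = 0.0851). Acute-7d was the only condition with and without the prefix, so that term rests on the difference between its replicates. It gave the same log2 difference as leaving out Acute-7d replicate 1, so these are not separate checks. Without T_Dysf replicate 1, which left that condition 1 library whose spread was taken to be that of the others, the log2 differences were 3.09 from Acute-7d and 3.53 from Acute-2d, with adjusted p = 0.124 and adjusted p = 0.0853. Without T_Dysf replicate 2 neither passed either (adjusted p = 0.0756 and adjusted p = 0.0525), nor did the difference from Acute-7d without Acute-7d replicate 1 (3.44, adjusted p = 0.0855) or replicate 2 (2.83, adjusted p = 0.0962).

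*Nr4a1*, which encodes Nur77 and is widely used as a reporter of T cell receptor signals, was high in Effector and T_Dysf and low in both Acute conditions. It lies on chromosome 15 (101254269 to 101274795, plus strand). Its libraries held 380.1 and 649 normalized counts in Effector, 135 and 231 in Acute-2d, 83.7 and 128 in Acute-7d, and 742 and 529 in T_Dysf. Effector and T_Dysf overlapped, and every library of these conditions lay above every Acute library. *Nr4a1* was 6.0-fold higher in T_Dysf than in Acute-7d (log2 difference 2.58 ± 0.43 SE, adjusted p = 0.0323) and 4.76-fold higher in Effector than in Acute-7d (2.25 ± 0.43, adjusted p = 0.0348). Against Acute-2d the differences were 1.82 for T_Dysf and 1.49 for Effector on the log2 scale, and neither passed (adjusted p = 0.0631 and adjusted p = 0.0854). T_Dysf and Effector differed by 0.33, with an interval of -0.78 to 1.45. Both calls against Acute-7d were lost with the RESUB term, where the adjusted p was 0.146 for T_Dysf and 0.0846 for Effector, and without either Acute-7d library. For T_Dysf the term gave the same log2 difference as leaving out Acute-7d replicate 1, and for Effector as leaving out replicate 2. These are not separate checks. Both calls were lost too with only the conditions compared in the fit (adjusted p = 0.0639 for T_Dysf and adjusted p = 0.130 for Effector). Without Acute-7d replicate 1 the log2 differences were 2.28 and 1.95, and without T_Dysf replicate 1 the difference of T_Dysf was 2.34 (adjusted p = 0.152). Over the 8 libraries left out in turn, the call of T_Dysf held in 2, those without an Effector library, and that of Effector in 1, that without Effector replicate 1.

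*Nr4a3*, which encodes NOR1, followed another order, with its highest values in Effector. The gene lies on chromosome 4 (48045153 to 48086447, plus strand). Its normalized counts were 499 and 1565 in Effector, 222 and 132 in Acute-2d, 296 and 257 in Acute-7d, and 409 and 277 in T_Dysf. Both Effector libraries lay above all others, T_Dysf and Acute-7d overlapped, and Acute-2d lay below both. No comparison of *Nr4a3* passed: the log2 difference of T_Dysf was 0.28 from Acute-7d (interval -1.30 to 1.87) and -1.39 from Effector (interval -2.97 to 0.19), and that of Effector was 1.68 from Acute-7d (adjusted p = 0.145). Replicates were wide apart in Effector, where replicate 2 held 3.14 times the value of replicate 1. Without Effector replicate 1, *Nr4a3* passed as lower in T_Dysf than in Effector and as higher in Effector than in either Acute condition.

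**Figure D1:**
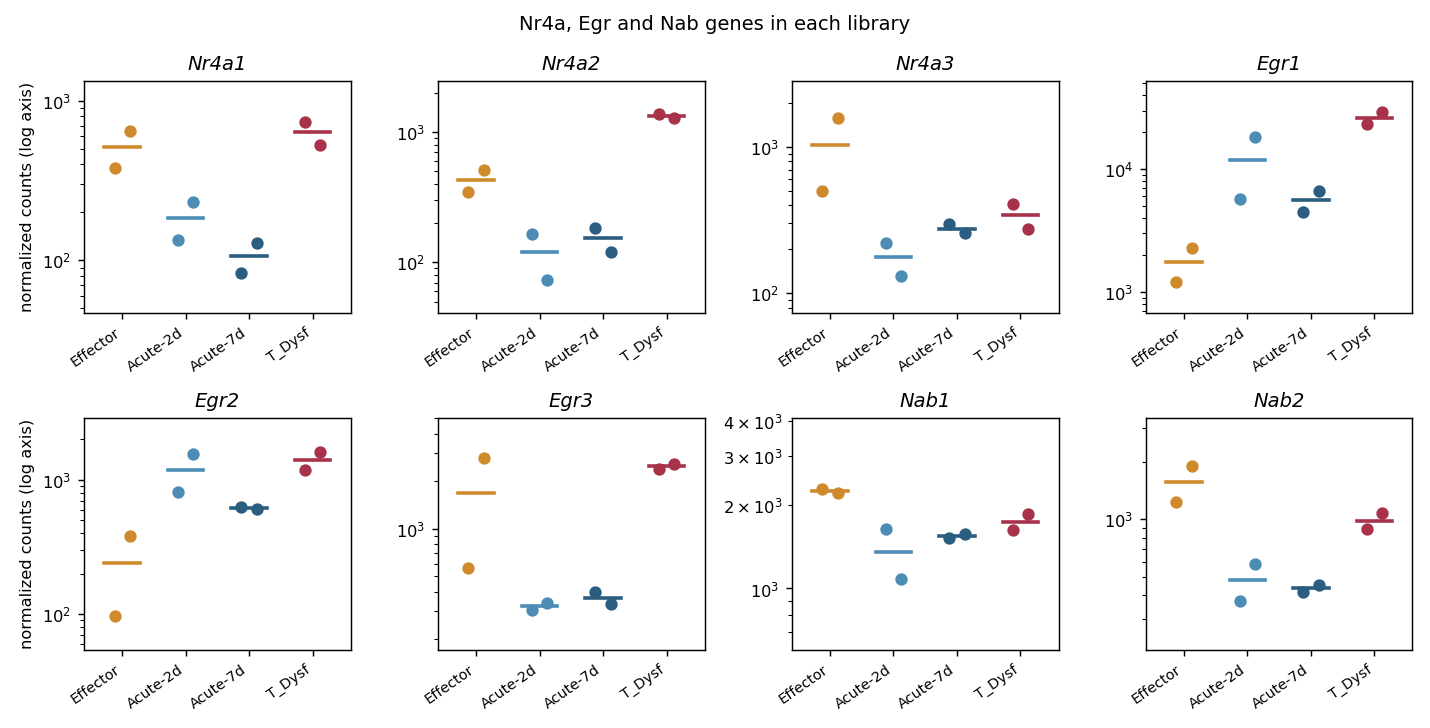
Normalized counts (log axis) of each of the 8 genes in the 4 conditions, with 1 point per library, replicate 1 on the left, and a bar at the mean of the 2 replicates. *Nr4a2* was at 1282 and 1368 in T_Dysf against at most 512 elsewhere, *Egr1* was at 1211 and 2272 in Effector against at least 4509.7 elsewhere, and the Effector replicates of *Egr2*, *Egr3* and *Nr4a3* lay far apart.

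To set levels side by side between genes, counts were taken per kilobase of annotated exon. That length took in every exon annotated for a gene in GENCODE, while reads were counted on RefSeq transcripts. Levels and shares between genes are therefore approximate. On this scale the 3 *Nr4a* genes summed to 565 normalized counts for T_Dysf, 425 for Effector, 114 for Acute-7d and 111 for Acute-2d (means of 2 libraries). *Nr4a2* made up 54.7% and 61.6% of that sum in the T_Dysf libraries, against 17.1% to 38.4% in the other 6 libraries. *Nr4a3* made up 11.1% and 9.01% in T_Dysf, below the 20.8% to 45.7% of the other 6. The summed level overlapped between Effector, at 277 and 572, and T_Dysf, at 617 and 513, while the shares of *Nr4a2* and *Nr4a3* did not overlap. The shares were not tested. Shares within a bulk library cannot tell fewer cells with a transcript from less transcript per cell, and the same holds for each level given here.

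**Figure D2:**
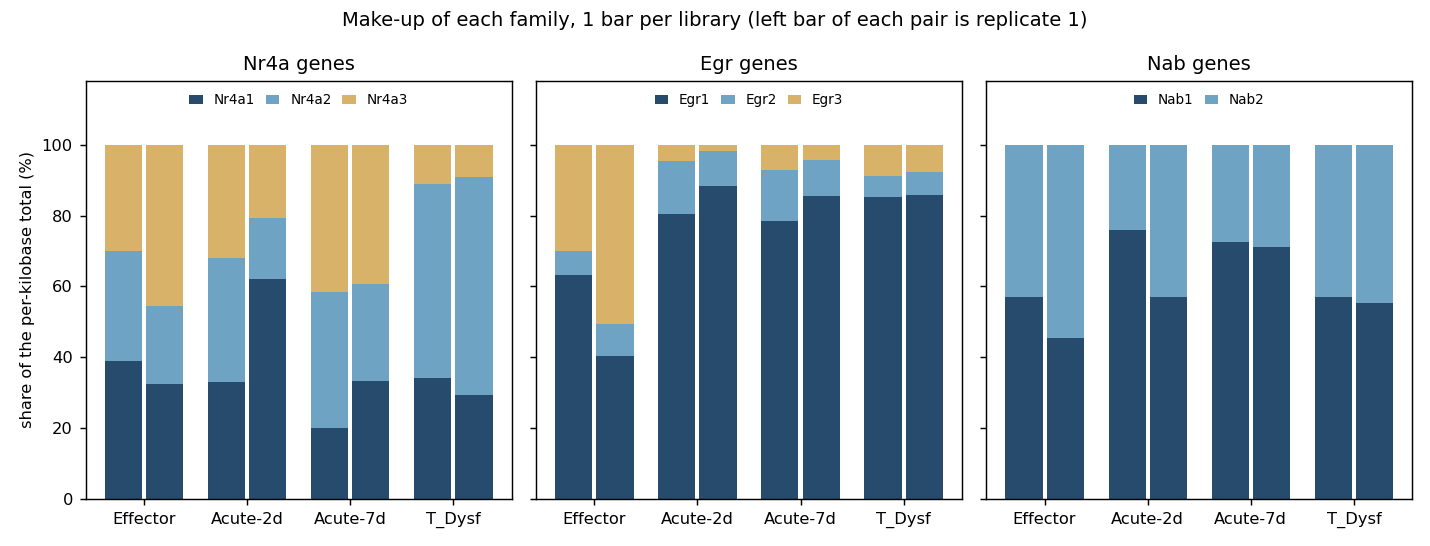
Share of the per-kilobase total (%) held by each gene of the *Nr4a*, *Egr* and *Nab* families, with 1 bar per library and the bars of a condition side by side. *Nr4a2* took over 54% of the *Nr4a* bars only in T_Dysf, and *Egr3* took 30.0% and 50.7% of the *Egr* bars in Effector against at most 8.95% elsewhere.

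*Egr1*, an immediate early gene induced through ERK and SRF, was the most abundant of the 8 genes per kilobase in every condition but Effector. It lies on chromosome 18 (34859823 to 34864984, plus strand). Its normalized counts were 1211 and 2272 in Effector, 5664 and 18215 in Acute-2d, 4509.7 and 6654 in Acute-7d, and 23229.7 and 28953 in T_Dysf. T_Dysf lay above every other library and Effector below, and the Acute conditions overlapped. *Egr1* was 15.6-fold higher in T_Dysf than in Effector (log2 difference 3.97 ± 0.65 SE, adjusted p = 0.0219). It did not pass between T_Dysf and Acute-7d (2.24, interval 0.57 to 3.92, adjusted p = 0.110), nor between T_Dysf and Acute-2d (1.35, interval -0.32 to 3.03), where the Acute-2d replicates themselves differed 3.22-fold. Effector was 1.72 below Acute-7d and 2.61 below Acute-2d on the log2 scale (adjusted p = 0.155 and adjusted p = 0.0587). With only T_Dysf and Effector in the fit the call was lost (adjusted p = 0.0628). Since both Effector libraries and neither T_Dysf library carry the RESUB prefix, it cannot be told apart from that contrast except through Acute-7d. With the term for it the log2 difference between T_Dysf and Effector was 3.40 (adjusted p = 0.265). Without T_Dysf replicate 1 it was 4.12 (adjusted p = 0.101), and the call was also lost without T_Dysf replicate 2, Effector replicate 1 (3.51, adjusted p = 0.0674) or Effector replicate 2 (4.42, adjusted p = 0.0594).

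*Egr2*, a factor linked to restraint and anergy in T cells, had the same order of conditions as *Egr1*. It lies on chromosome 10 (67535475 to 67542188, plus strand). Its normalized counts were 97.8 and 384 in Effector, 809.9 and 1551 in Acute-2d, 625 and 602 in Acute-7d, and 1189 and 1605 in T_Dysf. Effector was lowest without overlap, Acute-7d came next, and Acute-2d and T_Dysf overlapped. No comparison passed, although the log2 difference of T_Dysf from Effector was 2.83 (interval 0.99 to 4.66, adjusted p = 0.0620) and the difference between Effector and Acute-2d was -2.52 (interval -4.36 to -0.68, adjusted p = 0.0795). Between T_Dysf and Acute-7d the difference was 1.17, with an interval of -0.67 to 3.01.

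*Egr3*, its close relative, was high in T_Dysf and in Effector replicate 2. It lies on chromosome 14 (70077203 to 70082614, plus strand). Its normalized counts were 564 and 2807 in Effector, 308 and 339 in Acute-2d, 397 and 335 in Acute-7d, and 2394 and 2572 in T_Dysf. Acute libraries stayed within a narrow band, and the T_Dysf libraries lay far above it and close together. The Effector replicates differed 4.98-fold, with replicate 1 between the Acute and T_Dysf libraries and replicate 2 above all others. *Egr3* was 6.78-fold above Acute-7d in T_Dysf (log2 difference 2.76 ± 0.75 SE, interval 0.83 to 4.70) and 7.67-fold above Acute-2d (2.94 ± 0.75, interval 1.005 to 4.87), and neither passed (adjusted p = 0.0960 and adjusted p = 0.0745). All 4 conditions share the spread in that fit. When only the libraries compared were fitted, so that the Effector pair no longer entered, *Egr3* passed against both Acute-7d and Acute-2d, and it also passed against both without either Effector library.

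Within the *Egr* family, *Egr1* made up 85.6% of the per-kilobase total for T_Dysf, 84.4% for Acute-2d, 82.0% for Acute-7d and 51.8% for Effector (means of 2 libraries). *Egr3* made up 40.3% in Effector and 8.36% in T_Dysf, while its own level overlapped between these conditions. *Egr2* held between 5.76% and 15.2% in every library. The Effector libraries were thus the lowest in *Egr1*, in share and in level, but not in *Nr4a1* or *Nr4a3*.

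*Nab2* encodes a corepressor that Egr proteins themselves induce, and it was highest in Effector. It lies on chromosome 10 (127660918 to 127668568, minus strand). Its normalized counts were 1231 and 1891 in Effector, 372 and 585 in Acute-2d, 413 and 454 in Acute-7d, and 884 and 1074 in T_Dysf. Effector, T_Dysf and the Acute conditions formed steps without overlap, and Acute-2d spanned Acute-7d. *Nab2* was 3.52-fold higher in Effector than in Acute-7d (log2 difference 1.81 ± 0.31 SE, adjusted p = 0.0272) and 3.26-fold higher than in Acute-2d (1.71 ± 0.31, adjusted p = 0.0291). T_Dysf was 1.17 above Acute-7d and 1.06 above Acute-2d on the log2 scale, which did not pass (adjusted p = 0.0900 and adjusted p = 0.0998), and -0.65 from Effector (interval -1.44 to 0.15). With only the conditions compared in the fit neither call held (adjusted p = 0.114 and adjusted p = 0.144). With the RESUB term the Effector differences were 1.88 and 1.84, with adjusted p = 0.0927 and adjusted p = 0.228. Without Effector replicate 2 they were 1.505 and 1.40, and did not pass (adjusted p = 0.0872 and adjusted p = 0.0952). Over the 8 libraries left out in turn, the call against Acute-7d held in 3 and that against Acute-2d in 1.

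*Nab1*, the other corepressor, varied least. It lies on chromosome 1 (52457294 to 52500679, minus strand). Its normalized counts were 2282 and 2197 in Effector, 1630.3 and 1083 in Acute-2d, 1518 and 1565 in Acute-7d, and 1627 and 1853 in T_Dysf. Effector lay above all other libraries, and T_Dysf overlapped Acute-2d. T_Dysf differed from Acute-7d by 0.17 on the log2 scale (interval -0.35 to 0.69) and Effector from Acute-2d by 0.75 (interval 0.23 to 1.27, adjusted p = 0.0708). No comparison of *Nab1* reached a 2-fold difference. *Nab1* held 71.9% of the *Nab* total per kilobase in Acute-7d and 51.3% in Effector.

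Read by comparison, 2 of the 8 genes passed between T_Dysf and Acute-7d, *Nr4a1* and *Nr4a2*, both higher in T_Dysf, where 2.54% of all genes passed in that direction and 3.62% of those with a mean of at least 50, a level that all 8 genes reached. The median log2 difference of the 8 genes was 1.71, against 0 over all genes. In 7 of the 8 both T_Dysf libraries lay above both Acute-7d libraries, as they did in 26% of all genes and 38.7% of those with a mean of at least 50, with *Nr4a3* the exception. Only *Nr4a2* passed between T_Dysf and Acute-2d, where 3.14% of all genes were called higher. There 6 of the 8 lay above without overlap, against 25.7% of all genes and 37.9% of those with a mean of at least 50. Only *Egr1* passed between T_Dysf and Effector, where 4.47% were called higher, with 3 of the 8 above and 3 below Effector without overlap, against 26.8% and 29.7% of all genes. Among genes with a mean of at least 50, 36% lay above Effector without overlap, which is near the share of the 8 genes. Between Effector and Acute-7d *Nr4a1* and *Nab2* passed, where 4.18% were called higher, and between Effector and Acute-2d only *Nab2* passed, where 4.31% were. In both of these comparisons 6 of the 8 lay above the Acute libraries and *Egr1* and *Egr2* below them, without overlap. All genes did so in 25.8% and 29% against Acute-7d, and in 25.6% and 28.6% against Acute-2d. Among genes with a mean of at least 50, 37.8% lay above Acute-7d and 37.2% above Acute-2d without overlap. These comparisons share libraries, and with the groups in common their counts are not independent of each other.

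When the same test was run on only the 12028 genes with a mean of at least 50, more of the 8 genes passed. Between T_Dysf and Acute-7d there were then 5, with *Egr1*, *Egr3* and *Nab2* added, all higher in T_Dysf, where 5.92% of those genes were called higher. Against Acute-2d there were 4 (*Nr4a1*, *Nr4a2*, *Egr3* and *Nab2*; 6.29% called higher), and against Effector 3 (*Nr4a2*, *Egr1* and *Egr2*; 8.29%). In that fit *Egr1* was called lower in Effector than in Acute-7d, where 7.48% of genes were, and *Egr1* and *Egr2* lower than in Acute-2d, where 8.48% were. Called higher in Effector were 4 genes against Acute-7d, with *Nr4a2* and *Nr4a3* added, where 8.62% were, and 5 against Acute-2d, where 9.19% were. With the RESUB term in the fit of all genes, the count of the 8 genes that passed was 0 in 5 comparisons, and *Nr4a2* against Acute-2d remained. No call of T_Dysf against another condition held when either T_Dysf replicate was left out, which left that condition 1 library.

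**Figure D3:**
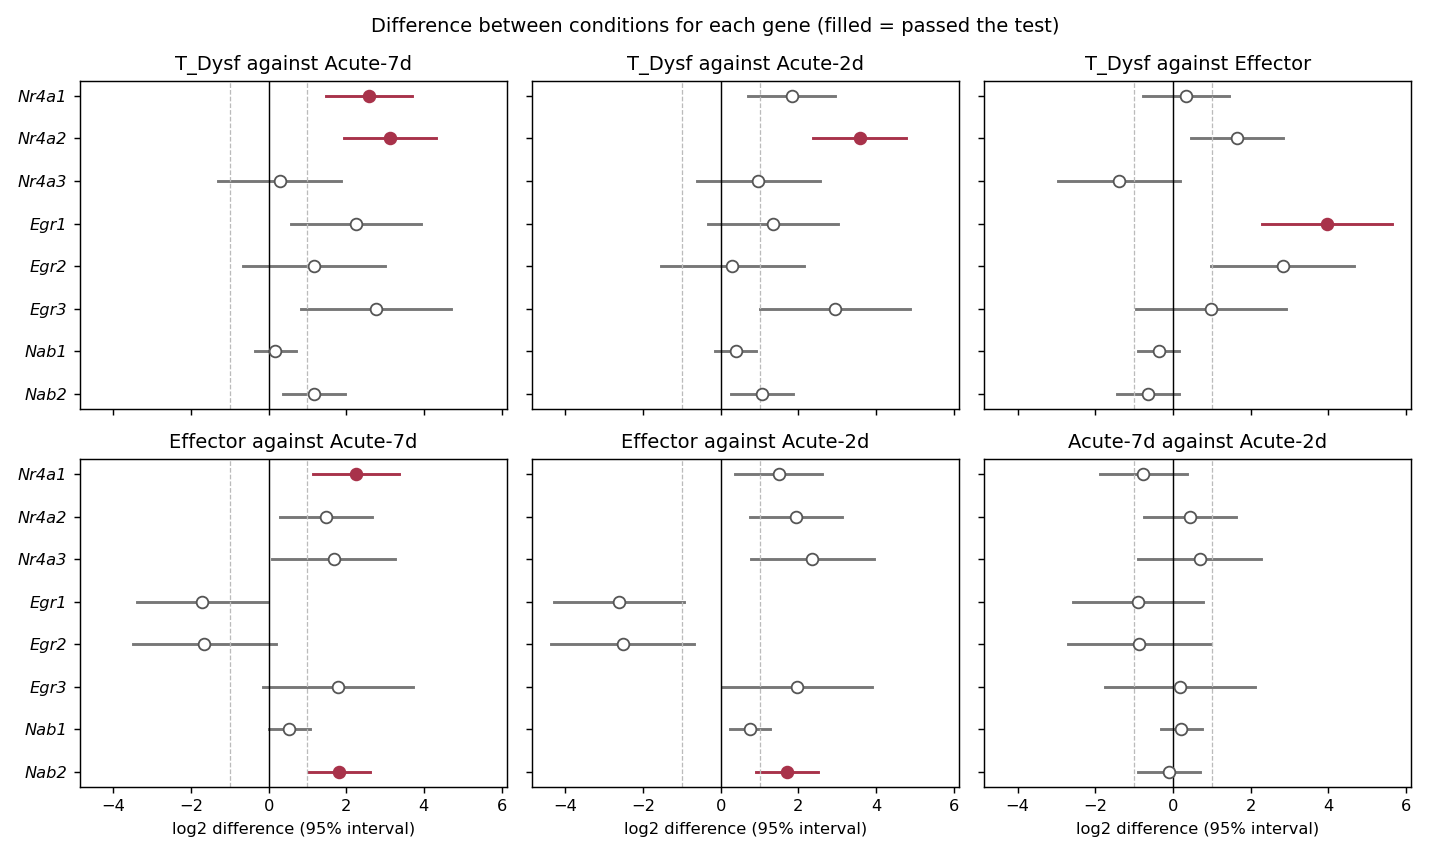
Log2 difference between conditions (x axis, first minus second) for each of the 8 genes in the 6 comparisons, with 95% intervals as lines and dashed lines at a 2-fold difference; filled points passed the test. *Nr4a2* stood at 3.14 and 3.57 against the Acute conditions, *Egr1* at 3.97 against Effector, and no gene passed between the Acute conditions.

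Acute-7d and Acute-2d differ in the days of GP33 before rest, and none of the 8 genes passed between them. At an unadjusted p under 0.05 from limma the count was also 0 of 8, against 7.31% of all genes, and 0.169% of all genes were called. The log2 differences ran from -0.89 for *Egr1* (interval -2.57 to 0.79) to 0.69 for *Nr4a3* (interval -0.90 to 2.27). The intervals of all but *Nab1* and *Nab2* reach past a 2-fold difference, so a difference of that size is not excluded for the other 6 genes.

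The Effector replicates stood apart in several of these genes. Replicate 2 lay above replicate 1 in 7 of the 8, with *Nab1* the exception, and by over 2-fold in *Egr2* (3.93 times), *Egr3* (4.98 times) and *Nr4a3* (3.14 times). Of the 12028 genes with a mean of at least 50, 1.36% were over 2-fold higher in replicate 2. The median log2 difference between these replicates was 0.84 over the 8 genes and 0.06 over the 12028. Of 28 early response genes 15 were higher in replicate 2, 3 of them by over 2-fold, and 2 were over 2-fold lower, with a median of 0.07. In Acute-2d, *Egr1* was 3.22 times higher in replicate 2 than in replicate 1, and 6 of the 28 early response genes were over 2-fold higher there, among them *Junb* at 6418 and 17233 and *Ier2* at 2596 and 9781 normalized counts. Another 3 of the 28 were over 2-fold lower there, among them *Fosb* at 2739 and 822 and *Tnfaip3* at 7853 and 3410.3, and 0.865% of the 12028 genes were over 2-fold higher. In Acute-7d 5 of the 28 were over 2-fold lower in replicate 2, among them *Fosb* at 2713 and 1018, and 0 were over 2-fold higher. The list's median log2 difference was -0.27 there, and 3.10% of the 12028 genes differed by over 2-fold in either direction. In T_Dysf 0 of the 28 differed by over 2-fold.

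Other immediate early and receptor-induced genes, a list of 28 that held *Fos*, *Jun*, *Myc*, *Cd69* and the *Dusp* phosphatases, was tested in the same fit. Between T_Dysf and Acute-7d none was called higher, where 2.54% of all genes were, and 2 were called lower, where 3.03% were. These were *Myc* (log2 difference -1.69 ± 0.22 SE, adjusted p = 0.0176) and *Klf6* (-1.56 ± 0.32, adjusted p = 0.0495), and the list's median was -0.07. Between T_Dysf and Effector 6 were called higher, where 4.47% of all genes were, and 1, *Irf4*, lower, where 4.75% were. The list's median was 0.87 there. Between Effector and Acute-7d 13 were called lower, where 3.88% of all genes were, and 1, *Irf4*, higher, where 4.18% were. The list's median was -1.17 there. *Cd69* had 1231 ± 218 normalized counts in Effector against 5389 ± 32.1 in Acute-7d (mean ± SD, n = 2; -2.14 ± 0.13 SE, adjusted p = 0.00561 from limma). *Dusp1*, a phosphatase that ends MAP kinase signals, was 2.64 lower in Effector on the log2 scale (difference -2.64, adjusted p = 0.0185). In this comparison *Egr1* and *Egr2* lay on the side of the list's median, at -1.72 and -1.65, and the 3 *Nr4a* genes, *Egr3* and *Nab2* on the other, between 1.49 and 2.25. With the RESUB term the counts were 6 lower and 0 higher between Effector and Acute-7d, 1 higher and 0 lower between T_Dysf and Effector, and 1 lower between T_Dysf and Acute-7d. Without T_Dysf replicate 1 they were 1 lower, 1 higher and 0.

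Of 24 upstream regulators, among them the SRF, MEF2, CREB and NFAT factors and the calcineurin and ERK enzymes, only *Mef2a* passed in any comparison with T_Dysf. Of all genes, 2.54% were called higher in T_Dysf than in Acute-7d, 3.14% than in Acute-2d and 4.47% than in Effector. A count of 1 in 24 is near those shares. *Mef2a* encodes a MEF2 factor, a class known to bind the *Nr4a1* promoter in T cells, whose sites were not among the motifs searched above. It held 12606 and 13833 normalized counts in T_Dysf and between 2705 and 3801 in the other 6 libraries, without overlap. The log2 difference was 1.83 from Acute-7d (± 0.09 SE, adjusted p = 0.00220), 2.12 from Acute-2d and 2.21 from Effector. *Mef2a* also passed against Acute-7d and Effector with the RESUB term and without T_Dysf replicate 1. None of the 24 passed between Effector and either Acute condition. The list's median was -0.20 between T_Dysf and Acute-7d.

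Relatives and partners of the 8 genes were 9 listed and 7 found, *Wt1* and *Rxrg* not being analysed here. *Rxra*, whose product pairs with Nr4a1 and Nr4a2 on DNA, was the only gene of the 7 that passed in a comparison of T_Dysf. Its T_Dysf libraries held 14.7 and 37.4 normalized counts, against 57.6 and 146 for Effector, 321 and 284 for Acute-2d, and 340.3 and 389 for Acute-7d. T_Dysf lay below all others, and *Rxra* was 3.89 lower than in Acute-7d on the log2 scale (difference -3.89 ± 0.61 SE, adjusted p = 0.0276), a call that was lost with the RESUB term and without T_Dysf replicate 1. Of all genes, 3.03% were called lower in T_Dysf than in Acute-7d. *Chd3*, a chromatin remodeler of the NuRD class, was lower in Effector than in Acute-7d (-1.24 ± 0.17 SE, adjusted p = 0.0207), where 3.88% of all genes were. *Egr4* stayed at or under 19.0 normalized counts in every library and was listed at 0 in Effector replicate 1 and Acute-7d replicate 2.

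Genes known as targets of Egr2 and Egr3 in anergic or activated T cells were 18, of which most passed in neither of the comparisons below. Between T_Dysf and Acute-7d *Lag3* (log2 difference 1.67, adjusted p = 0.0247) and *Tnfrsf9* (1.34, adjusted p = 0.0276) were higher, and *Dgka*, a kinase that blunts diacylglycerol signals, was lower (-1.59 ± 0.11 SE, adjusted p = 0.00485), while 15 did not pass, with a median of -0.34. Of all genes, 2.54% were called higher and 3.03% lower there. Between Effector and Acute-7d 3 were higher, among them *Nrgn* (3.40 ± 0.53 SE, adjusted p = 0.0235), 5 were lower and 10 did not pass, with a median of -0.43. Of all genes, 4.18% were called higher and 3.88% lower there. With the RESUB term the counts were 0 higher and 1 lower in the first of these comparisons and 2 and 2 in the other, and without T_Dysf replicate 1 they were 0 and 1, and 1 and 2.

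Of 16 genes linked to Nr4a factors in exhausted cells, 15 were found, *Tox2* not being analysed here. In T_Dysf 7 were called higher than in Acute-7d, those with the lowest adjusted p being *Pdcd1* (2.82 ± 0.20 SE, adjusted p = 0.00488), *Cd101*, *Havcr2* and *Tigit* (2.89 ± 0.38, adjusted p = 0.0181), and *Runx1* was lower (-1.66 ± 0.04 SE, adjusted p = 0.000449), with a median of 1.34. Of all genes, 2.54% were called higher and 3.03% lower there. In Effector 7 were also called higher than in Acute-7d and none lower, with a median of 0.95, among them *Pdcd1* (2.67, adjusted p = 0.00886) and *Tox* (2.81, adjusted p = 0.0266). Of all genes, 4.18% were called higher in that comparison. *Lag3* and *Tnfrsf9*, also listed as targets of Egr2 and Egr3, were called higher in both comparisons, so they count in both lists. *Pdcd1* had 3888 ± 189 normalized counts in T_Dysf, 3530 ± 689 in Effector and 552 ± 65.3 in Acute-7d (mean ± SD, n = 2). *Pdcd1* overlapped between T_Dysf and Effector, as *Nr4a1* did. These genes were listed because earlier work ties them to Nr4a factors, and with the results of these data known, so that their direction is no independent evidence. With the RESUB term 1 was higher and 1 lower between T_Dysf and Acute-7d and 3 higher between Effector and Acute-7d, and without T_Dysf replicate 1 the counts were 1 and 1, and 2 higher.

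**Figure D4:**
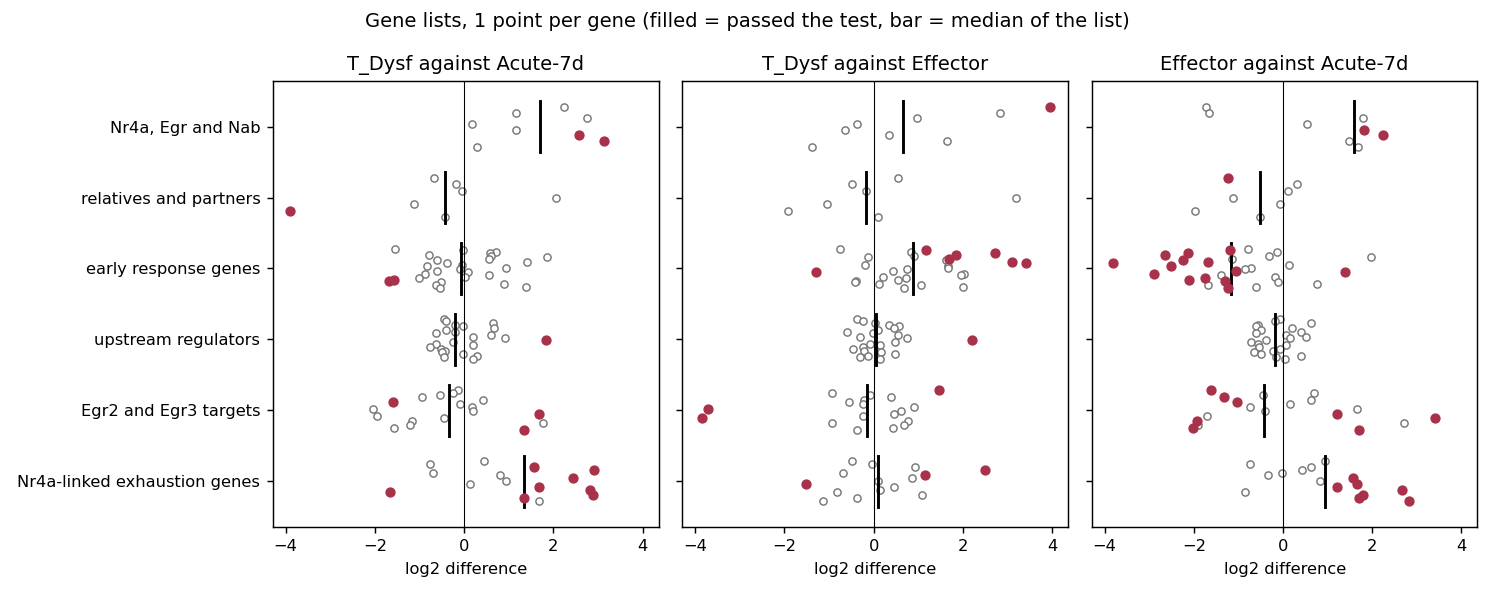
Log2 difference (x axis) of every gene of 6 lists in 3 comparisons, with 1 point per gene, filled where the test was passed, and a bar at the median of the list. Between T_Dysf and Acute-7d the 8 genes had a median of 1.71 and the early response genes -0.07, and between Effector and Acute-7d the early response genes had a median of -1.17.

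The cells were checked against markers. All 7 markers of CD8 T cells were found, and their summed normalized counts were 188722 to 190038 for T_Dysf, 90897 to 93696 for the Acute conditions and 78506 to 79653 for Effector. *Cd3e*, *Cd3g* and *Thy1* were called higher in T_Dysf than in Acute-7d. Sums of 5 myeloid markers ran from 263 to 648 over the 8 libraries, and *Cd4* was at 1.01 to 13.0. Of 4 plasma cell markers, *Sdc1* and *Jchain* were called higher in T_Dysf than in Acute-7d. *Sdc1* was at 113 and 148 normalized counts in T_Dysf against at most 19.1 elsewhere, and *Jchain* at 236 and 275 against at most 7.37. *Xbp1* and *Mzb1* did not pass, and *Mzb1* was at most 4.01 in every library. Sums of the 4 were 1793 to 2116 in Acute-7d and 2423 to 2491 in T_Dysf, mostly *Xbp1*, which was at 1406 to 2181 over the 8 libraries. Of 3 NK markers only *Ncr1* passed between T_Dysf and Acute-7d. It was lower in T_Dysf, at 2.59 and 1.78 normalized counts, worth 3 reads or fewer, against 30.1 and 105. The sums of the 3 were 1073 to 1748 in T_Dysf and 3560 to 4545 in Acute-7d. Most of each of these sums was *Eomes*, at 828 and 1202 in T_Dysf and 3510 and 2071 in Acute-7d. Sums were 102 to 546 for 4 dendritic cell markers and 17.3 to 42.6 for 2 erythroid markers, and none of those passed between T_Dysf and Acute-7d. Of 4 B cell markers *Cd79b* was called higher than in Acute-7d, where it was at 30.1 and 38.4 normalized counts, both in T_Dysf, at 136 and 115 (log2 difference 1.84, adjusted p = 0.0307), and in Effector, at 138 and 83.3 (1.63, adjusted p = 0.0322), the comparisons in which *Nr4a1* passed. *Cd79a*, *Ms4a1* and *Pax5* passed in neither, and were at most 21.4 in every library. The part of these markers in the differences of *Nr4a1*, *Nr4a2* and *Nab2* was not tested.

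For each of the 8 genes the most similar pattern among genes with a mean of at least 50 was sought by Pearson's r of log2 values over the 8 libraries, which share conditions and therefore give high values readily. *Nr4a2* was most like *Ncbp3* (r = 0.991), *Nr4a1* most like *Csnk2b* (r = 0.974) and *Nr4a3* most like *Smpd4* (r = 0.994). *Egr1* was most like *Usb1* (r = 0.985), *Egr2* most like *Eif4b* (r = 0.983), *Egr3* most like *Calr* (r = 0.990), *Nab1* most like *Cd86* (r = 0.967) and *Nab2* most like *Hras* (r = 0.990). Among the 8 themselves r was 0.929 between *Egr1* and *Egr2*, 0.905 between *Nr4a2* and *Egr3*, 0.879 between *Nr4a1* and *Egr3*, and 0.878 between *Nr4a1* and *Nab2*. Between *Egr1* and *Nr4a3* it was -0.554 and between *Egr1* and *Nab1* -0.594, and *Egr1* and *Egr2* had no r above 0.25 with any other of the 8. These values describe 8 points and were not tested.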

How the data were processed

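The 8 RNA-Seq libraries, 2 for each of 4 conditions of P14 CD8 T cells, were analysed from 1 table. In Partek Flow, the authors aligned reads to mm10 with STAR, quantified RefSeq transcripts and applied median-ratio normalization (DESeq2); versions of STAR and DESeq2 are not given in the sources used here. The values are a signal, estimated counts over a size factor, as the authors deposited them. Their own filter (a maximum of at least 50) was not applied in that table, since genes below it are listed. Reads were not recoverable as whole numbers. In T_Dysf replicate 1, 53.3% of values below 1000 reads fell within 0.02 of a whole multiple of the smallest common step. In all other libraries 73.2% to 75.8% did, so T_Dysf replicate 1 stood apart. The read total of each library, highest in T_Dysf replicate 1, rests on that step. No count model was therefore used.

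All 24303 genes entered limma (3.58.1, R 4.3.3; lmFit and eBayes with a trend), transformed as log2(normalized count + 1), with 8 libraries, 4 group means, 4 residual degrees of freedom, no covariate and two-sided tests in 6 comparisons. A call needed a 2-fold difference and an adjusted p (Benjamini-Hochberg, all genes) under 0.05. The procedure was tested on simulated data. Tables and figures used Python 3.11.15, pandas 2.3.3, numpy 2.4.6 and matplotlib 3.10.9. Positions and exon lengths came from GENCODE vM21 (GRCm38), and promoters of 6 of the 8 genes from RefSeq GRCm38.p6.

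The members and gene lists were chosen with earlier results of these data known. Genes named are the 8 members with their values in every library, the most alike genes, and of each list at most 4 genes per direction that passed in T_Dysf against Acute-7d or Effector against Acute-7d. *Junb*, *Ier2*, *Fosb*, *Tnfaip3*, *Cd4*, *Eomes*, *Xbp1*, *Mzb1*, the B cell markers and *Egr4* were chosen after their values were seen. There were 18 alternatives for the members: pseudocounts of 0.1 and 10, a filter at a mean of 50 or at a maximum of 50, 75th percentile scaling, quantile normalization, only the conditions compared, a replicate block, a term for the RESUB prefix, an adjusted p alone and each library left out. List counts with the RESUB term or without T_Dysf replicate 1 were added after seeing the data. Of the B cell markers, 1 is not reported here.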

Additional observations from a re-analysis of the deposited data

How the results depend on the processing

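Directions of the 8 genes rarely turned. Reversed log2 differences were: T_Dysf against Effector, *Nr4a1* at -0.28 with the RESUB term and -0.051 to 0.72 with 1 library left out, and *Egr3* at -0.18 to 2.14, both lowest without Effector replicate 1; T_Dysf against Acute-2d, *Egr2* at -0.17 (without Acute-2d replicate 1) to 0.77; and, between the Acute conditions, *Nr4a2* at -0.14 to 1.02, *Nab1* at -0.081 to 0.51 and *Nab2* at -0.43 to 0.22, each reversed without Acute-2d replicate 2. Calls were less stable, and the cause was not tested. Against 2 genes called between T_Dysf and Acute-7d, 1 against Acute-2d, 1 against Effector, 2 for Effector against Acute-7d, 1 against Acute-2d and 0 between the Acute conditions, filters at a mean of 50 and at a maximum of 50 both gave 5, 4, 3, 5, 7 and 0, and the RESUB term gave 0, 1, 0, 0, 0 and 0. Fitting only the conditions compared gave 0 for T_Dysf against Effector and for Effector against either Acute condition. The counts of 2 and 1 for T_Dysf against Acute-7d and Acute-2d were the same there, but *Egr3* took the place of *Nr4a1* in the first and of *Nr4a2* in the other. For Effector against Acute-2d, a pseudocount of 10, 75th percentile scaling and quantile normalization each gave 2. Leaving out each replicate in turn gave 0 to 3 between T_Dysf and Acute-7d, 0 to 2 against Acute-2d, 0 to 2 against Effector, 0 to 4 for Effector against Acute-7d, 0 to 3 against Acute-2d and 0 to 0 between the Acute conditions. Of the 18 alternatives, the call of *Nr4a2* held in 15 against Acute-2d and 13 against Acute-7d, *Nr4a1* in T_Dysf in 10 and in Effector in 9, *Egr1* in 12, and *Nab2* in 11 against Acute-7d and 9 against Acute-2d. An adjusted p alone only loosens the rule, so that alternative kept every call by construction. Against Acute-7d, the RESUB term and leaving out 1 Acute-7d replicate gave the same log2 differences, so they are not separate checks.

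Same-numbered replicates did not deviate together over all 6 pairs of conditions (r across genes from -0.199 to 0.197), so the numbers were not taken as pairs. The replicate block gave 2 genes called between T_Dysf and Acute-2d and 2 between Effector and Acute-2d; it added *Nab2* to T_Dysf against either Acute condition and *Egr1*, lower, to Effector against Acute-2d, and ended no call. Over all genes, calls between T_Dysf and Acute-7d were 1353, and 891 with the block, 541 with the RESUB term and 2238 with no minimum fold. No minimum fold gave 2882 against Acute-2d (1787 with it), 3787 against Effector (2241), and 3613 (1958) and 3821 (2135) for Effector against Acute-7d and Acute-2d. For the last 3 of these, the RESUB term gave 386, 808 and 350 and fitting only the conditions compared gave 465, 155 and 235. Between the Acute conditions 41 genes were called, 19 of them higher; 8, of which 6 were higher, with quantile normalization, 4 and 81 with pseudocounts of 10 and 0.1, 1 with either filter, 147 with only those conditions and 168 with the RESUB term. Without 1 replicate the counts ran from 422 to 1534, 656 to 1867, 585 to 2484, 378 to 2156, 553 to 2363 and 61 to 376 in the 6 comparisons. Scaling by the 75th percentile moved the median of all genes by -0.11 (log2) in Effector against Acute-7d. At least 19382147 reads per library left each of the 8 genes above the floor.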
